A study of Homo sapiens with 24 samples.

Results

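The G1/S and DNA replication genes followed here are a list of 54 genes given by symbol, from the licensing of replication origins to the enzymes that make deoxynucleotides. The list was drawn up with earlier results of these data known. All 54 genes were found by NCBI Gene identifier among the 28395 identifiers that both deposited count tables list. They were measured by 3′ RNA sequencing of polyA RNA in MM1.S and JJN3, established lines of human multiple myeloma, a cancer of plasma cells. The labels give MM1.S as p53-WT and JJN3 as p53-null. Cells of each line received CX-5461 at 500 nM, an inhibitor of transcription by RNA polymerase I, panobinostat at 50 nM, an inhibitor of histone deacetylases, both drugs together, or vehicle. All treatments lasted 24 h and there were 8 groups of 3 libraries, 24 in all. Each p53 state is represented by 1 line, so p53 status cannot be told apart from any other difference between MM1.S and JJN3. The labels do not say whether the libraries of a group came from separate cultures, and p-values here reflect the spread among these libraries alone, which may be technical.

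Before S phase, the origin recognition complex, CDC6 and CDT1 load the MCM2-7 helicase onto DNA, and the CDC7-DBF4 kinase with CDC45 and GINS then turns loaded helicases into moving forks. Most genes of this machinery are transcribed late in G1 by E2F factors. The retinoblastoma protein holds these back until cyclin-dependent kinases release them, among them CDK2 with cyclin E. The phosphatase CDC25A activates CDK2. Plasma cells normally do not divide, whereas myeloma lines proliferate, so these genes are commonly read as a measure of cycling cells. In bulk RNA, fewer cells in S phase and less of the RNA per cell cannot be told apart.

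A stretch of the RefSeq promoter window (GRCh38.p14, 250 bases before to 50 after a gene's start) is printed for 8 members. They were picked by name, to be compared at the sequence E2F factors recognise. All but TK1 and RPA1 were among the members that fell with panobinostat in MM1.S. Capitals mark TTTCCCGC, TTTGGCGC, TTTCGCGC or TTTGCCGC on either strand, and each line holds the 160 bases before the start, 5′ to 3′ in the direction of the gene. E2F2 lies at chr1:23531234-23531393 on the minus strand, E2F1 at chr20:33686386-33686545 on the minus strand, CDC25A at chr3:48188418-48188577 on the minus strand and UHRF1 at chr19:4909341-4909500 on the plus strand. CDT1 lies at chr16:88803629-88803788 on the plus strand, MCM6 at chr2:135876444-135876603 on the minus strand, TK1 at chr17:78187205-78187364 on the minus strand and RPA1 at chr17:1829845-1830004 on the plus strand. RefSeq lists 3 windows for UHRF1 and 2 for TK1. The 1 with most matches in its stretch is shown for each, and the first listed at a tie.
E2F2: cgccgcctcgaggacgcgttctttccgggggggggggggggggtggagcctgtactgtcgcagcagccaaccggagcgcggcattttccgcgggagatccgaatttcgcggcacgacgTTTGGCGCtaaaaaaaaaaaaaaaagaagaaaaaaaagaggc
E2F1: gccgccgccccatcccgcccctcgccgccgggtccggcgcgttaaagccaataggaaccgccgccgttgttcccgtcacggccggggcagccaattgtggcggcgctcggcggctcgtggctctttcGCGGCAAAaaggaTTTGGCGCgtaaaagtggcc
CDC25A: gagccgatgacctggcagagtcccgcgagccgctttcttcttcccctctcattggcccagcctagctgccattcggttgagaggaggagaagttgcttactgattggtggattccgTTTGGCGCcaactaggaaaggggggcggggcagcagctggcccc
UHRF1: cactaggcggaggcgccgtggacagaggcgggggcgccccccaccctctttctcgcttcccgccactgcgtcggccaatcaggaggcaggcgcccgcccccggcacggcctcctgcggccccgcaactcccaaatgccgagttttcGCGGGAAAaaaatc
CDT1: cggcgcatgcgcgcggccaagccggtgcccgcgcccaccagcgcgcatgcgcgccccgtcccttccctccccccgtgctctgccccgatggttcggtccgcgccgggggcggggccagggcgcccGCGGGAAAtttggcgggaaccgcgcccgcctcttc
MCM6: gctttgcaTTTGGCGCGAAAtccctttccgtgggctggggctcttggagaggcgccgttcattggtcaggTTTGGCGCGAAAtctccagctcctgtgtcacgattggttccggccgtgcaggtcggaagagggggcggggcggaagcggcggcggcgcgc
TK1: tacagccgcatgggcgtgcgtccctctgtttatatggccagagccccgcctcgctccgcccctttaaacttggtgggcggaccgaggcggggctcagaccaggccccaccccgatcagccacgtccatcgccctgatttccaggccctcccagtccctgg
RPA1: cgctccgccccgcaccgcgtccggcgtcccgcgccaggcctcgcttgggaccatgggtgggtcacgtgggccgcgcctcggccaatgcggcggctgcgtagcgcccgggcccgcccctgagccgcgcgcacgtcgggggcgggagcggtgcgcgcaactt
E2F2, CDC25A, UHRF1 and CDT1 show 1 match each in these stretches, E2F1 shows 2, and MCM6 shows 4, in which matches on the plus and minus strands overlap. TK1 and RPA1 show no match, which says only that these letters are not in the stretch. The 8 do not stand for all members. Of the 40 members with a window that fell with panobinostat in MM1.S, 25 (62.5%) held a match. Of the 47 members with a window, 27 (57.4%) held at least 1 match, against 1090 of 27305 genes (3.99%) and 855 of 15843 protein-coding genes (5.4%). A gene with several windows was counted if any of them held a match. Among genes with 1 window the shares were 19 of 34 members (55.9%) and 703 of 22114 genes (3.18%). MCM4, MCM5, GINS4, POLD3, RPA2, RPA3 and CCNE2 have no window in the table used here. For comparison, CCAAT on either strand was in 27 of 47 members (57.4%) and in 39.7% of genes, and TTTGAA on either strand was in 4 of 47 members (8.51%) and in 18.2% of genes. A match is a description of the sequence and not a binding site.

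Total counts ranged from 4751893 to 7305069 per library, and 53 of the 54 members passed the filter on low counts in both lines. In MM1.S the members held 0.677 ± 0.0397% of all counts with CX-5461, 0.190 ± 0.0120% with panobinostat, 0.254 ± 0.0246% with both drugs and 0.474 ± 0.0474% with vehicle (SD, n = 3 each). In JJN3 the members held 0.515 ± 0.0858% with CX-5461, 0.379 ± 0.0505% with panobinostat, 0.438 ± 0.0524% with both drugs and 0.485 ± 0.108% with vehicle. Replicate 2 had the lowest share in each of the 8 groups. In MM1.S it stood at 0.642% with CX-5461, 0.177% with panobinostat, 0.228% with both drugs and 0.427% with vehicle, and in JJN3 at 0.423% with CX-5461, 0.323% with panobinostat, 0.379% with both drugs and 0.363% with vehicle. The correlation of deviations from the group means across genes, between libraries of the same replicate number, was above 0.1 in all 18 pairs of JJN3 (0.225 to 0.547) and in 7 of 18 pairs of MM1.S (-0.0648 to 0.323). JJN3 counts are therefore also given from a fit with a block for the replicate number, and the counts of both lines also without replicate 2. All 9 plasma cell markers had reads in both lines. Levels are in CPM (read count relative to the library's total, scaled by TMM, the trimmed mean of M values, within each line). The summed level of the 9 markers was 519 to 719 CPM with panobinostat against 6596 to 6936 CPM with vehicle in MM1.S. In JJN3 it was 1136 to 1258 CPM with panobinostat against 1805 to 1930 CPM with vehicle. CD38 reached at most 0.39 CPM in JJN3, under the 0.411 to 0.631 CPM that 3 counts amount to. PRDM1 and SLAMF7 went against the sum in JJN3. PRDM1 had 54.7 to 69.2 CPM with panobinostat against 44.1 to 50.3 CPM with vehicle, and SLAMF7 5.57 to 6.03 against 3.82 to 4.82 CPM. The sum of 5 fibroblast and stromal markers in MM1.S was 11.5 to 20.5 CPM with panobinostat against 1.97 to 2.44 CPM with vehicle, most of it COL1A1, while COL3A1 was at 0 in every MM1.S library. T cell, myeloid and epithelial marker sums reached at most 3.09, 8.76 and 21.5 CPM in any library. The part of these marker changes in the results was not tested.

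**Figure D1:**
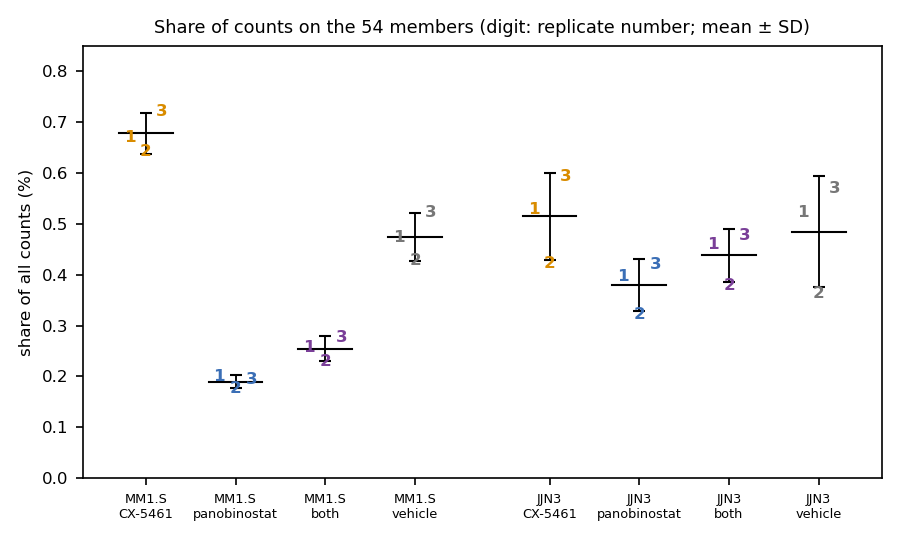
Share of all counts that fell on the 54 members, in percent, for each library (digit: replicate number) with the mean and SD of each group of 3. In MM1.S the 3 libraries with panobinostat lie between 0.177 and 0.200% and the 3 with vehicle between 0.427 and 0.522%, and replicate 2 is the lowest library of every group in both lines.

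In MM1.S, most members fell with panobinostat and many rose with CX-5461. With panobinostat, 44 of 53 tested members were lower and 3 were higher (edgeR's quasi-likelihood test, Benjamini-Hochberg adjusted p under 0.05), against 32.9% of all 12030 genes tested lower and 36.9% higher. The median log2 fold change of the members was -1.33 with panobinostat, against 0.07 over all genes, and 37 of the 44 had fallen at least 2-fold. All panobinostat libraries lay below all vehicle libraries for 44 members and above them for 2, against 33.8% and 37.6% of all genes. With CX-5461, 28 members were higher and 1, DBF4, was lower, against 9.68% of all genes higher and 7.06% lower. The members' median with CX-5461 was 0.48, against 0.01 over all genes. All CX-5461 libraries lay above all vehicle libraries for 36 members and below them for 2, against 19.2% and 16.6% of all genes. With scaling to library size alone, calls over all genes with CX-5461 were 1544 higher and 509 lower in place of 1165 and 849, and calls among members were 33 higher and 0 lower, without DBF4. DESeq2 did not call DBF4 either. With both drugs, 38 members were lower and 6 were higher, against 33.2% and 37.0% of all genes, and their median was -0.90, against 0.06 over all genes. All libraries with both drugs lay below vehicle for 37 members and above it for 6, against 34.6% and 38.3% of all genes. Scaling to library size alone moved the median of all genes by 0.137 with panobinostat and by 0.173 with both drugs, and gave 3 members higher and 44 lower with panobinostat and 7 higher and 35 lower with both drugs. Without replicate 2 of every MM1.S group, an alternative chosen after seeing the data, 45 members were lower and 2 higher with panobinostat, against 30.4% and 34.4% of all genes. CX-5461 then gave 24 members higher and 1 lower, against 8.12% and 5.6% of all genes, and both drugs gave 39 lower and 4 higher, against 31% and 34.4%.

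In JJN3 fewer members were called. The JJN3 member calls here and below are from the fit without the replicate block unless the block is named. With panobinostat, 15 members were lower and 1 was higher, against 10.9% of the 11411 genes tested lower and 15% higher, with a median of -0.42. All panobinostat libraries lay below vehicle for 13 members and above it for 2, against 17.6% and 21.1% of all genes. With both drugs, 14 were lower and 3 were higher, against 18.2% and 21.0% of all genes, with a median of -0.22. All libraries with both drugs lay below vehicle for 11 members and above it for 4, against 23.1% and 26.2% of all genes. Scaling to library size alone gave 2943 genes higher and 1539 lower with both drugs in JJN3, in place of 2400 and 2072, and 3 members higher and 12 lower. With CX-5461, edgeR called 0 members and 0% of genes, while 3 members and 633 genes had an unadjusted p under 0.05, and DESeq2 and limma-voom also called 0 members. All CX-5461 libraries lay above vehicle for 1 member, CDC7, and below it for 0, against 5.22% and 5.38% of all genes.

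**Figure D2:**
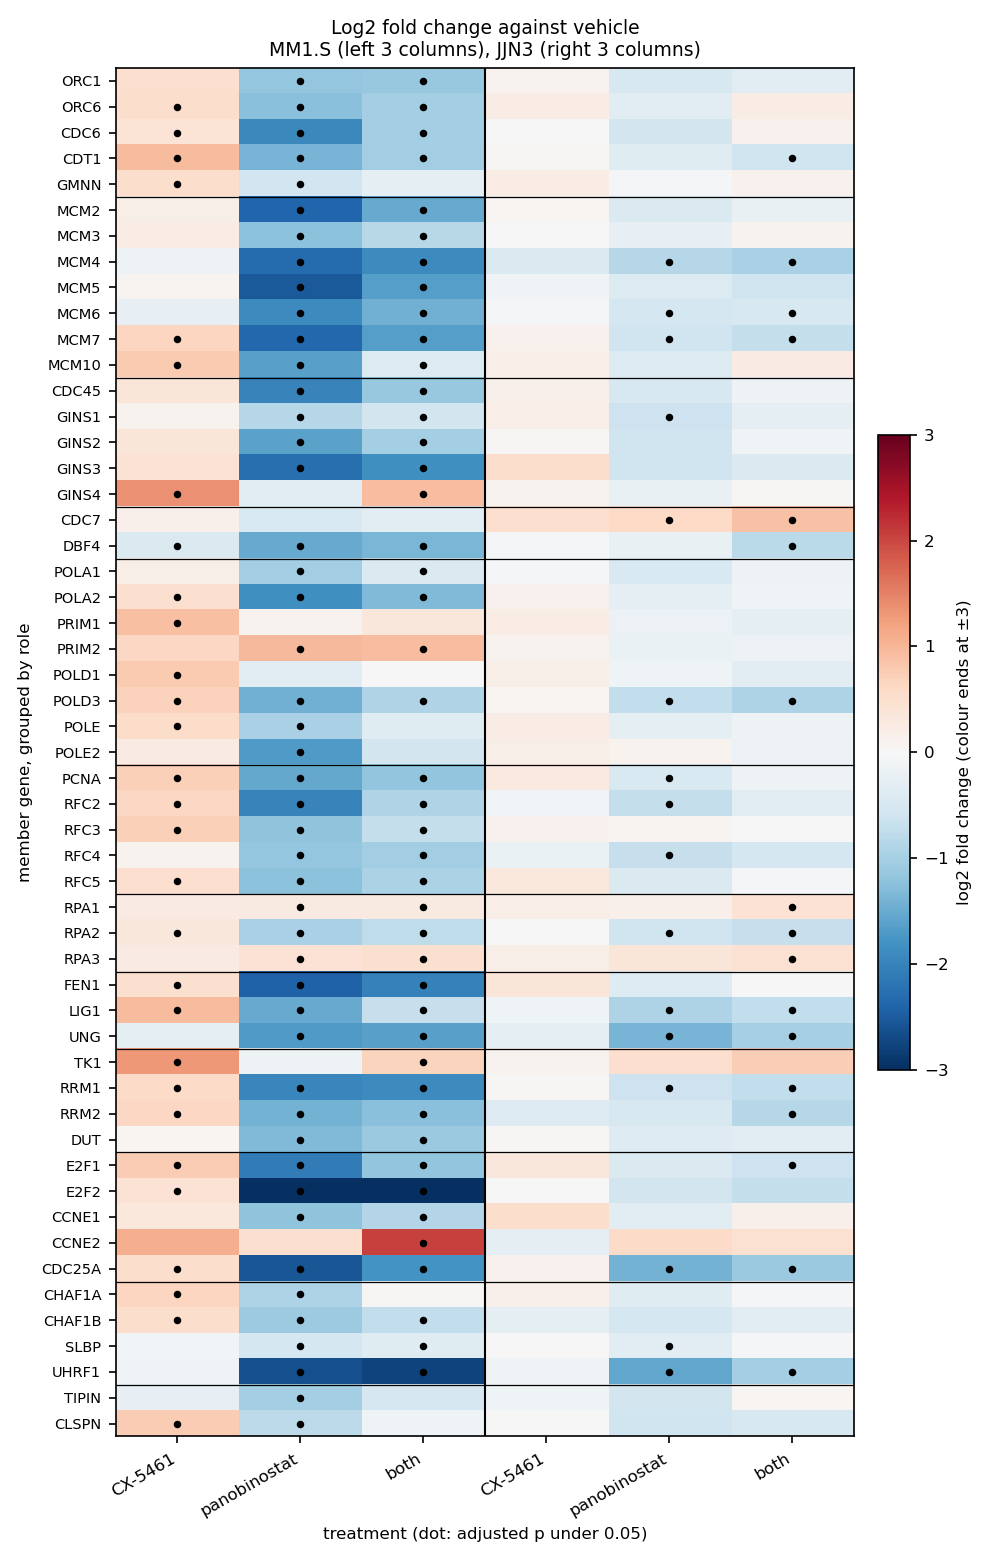
Log2 fold change of the 53 tested members against vehicle with CX-5461, panobinostat or both drugs in MM1.S (left) and JJN3 (right), with members grouped by role and dots at edgeR adjusted p under 0.05. E2F2, at -4.11 with panobinostat and -3.95 with both drugs in MM1.S, lies beyond the colour limits of ±3.

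Licensing genes followed this pattern in single libraries. CDC6, which loads the MCM helicase, had 105, 97.6 and 118 CPM with CX-5461, 22.3, 19.8 and 21.1 CPM with panobinostat, 42.9, 34.1 and 42.6 CPM with both drugs and 76.1, 78.7 and 85.8 CPM with vehicle in MM1.S. Every CX-5461 library lay above and every panobinostat library below all vehicle libraries. Its log2 fold change was 0.41 ± 0.11, edgeR adjusted p = 0.00928 with CX-5461, -1.93 ± 0.12, edgeR adjusted p = 6.62e-13 with panobinostat and -1.01 ± 0.12, edgeR adjusted p = 2.65e-08 with both drugs. CDT1, the partner of CDC6 in loading, had 112, 107 and 125 CPM with CX-5461, 23.7, 21.5 and 22.02 CPM with panobinostat, 28.4, 24.3 and 32.8 CPM with both drugs and 50.9, 67.1 and 59.1 CPM with vehicle. Here too the groups did not overlap with vehicle, and the change was 0.96 ± 0.12, edgeR adjusted p = 1.86e-06 with CX-5461 and -1.39 ± 0.13, edgeR adjusted p = 1.15e-09 with panobinostat. Geminin (GMNN), which inhibits CDT1, had 60.2, 64.1 and 61.8 CPM with CX-5461, 33.2, 28.4 and 25.03 CPM with panobinostat, 35.6, 30.3 and 39.7 CPM with both drugs and 43.4, 37.1 and 47.1 CPM with vehicle. Its libraries with both drugs overlapped those with vehicle, and only the changes with CX-5461 (0.54 ± 0.12, edgeR adjusted p = 0.00343) and panobinostat (-0.57 ± 0.13, edgeR adjusted p = 0.000588) passed the test. ORC1, a subunit of the origin recognition complex, had 17.05, 17.2 and 19.9 CPM with CX-5461, 5.43, 5.08 and 6.59 CPM with panobinostat, 4.73, 4.49 and 8.12 CPM with both drugs and 12.4, 11.6 and 14.1 CPM with vehicle. All CX-5461 libraries were above those with vehicle, but this difference missed the threshold (0.50 ± 0.19, edgeR adjusted p = 0.0695), whereas the fall with panobinostat passed it (-1.16 ± 0.22, edgeR adjusted p = 5.39e-05). ORC6, of the same complex, rose with CX-5461 (0.52) and fell with panobinostat (-1.25).

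The MCM2-7 genes and MCM10 all fell in MM1.S with panobinostat and with both drugs, 7 of 7 tested. Of all genes, 32.9% fell with panobinostat and 33.2% with both drugs. MCM2, a helicase subunit, had 159.5, 164 and 166 CPM with CX-5461, 28.8, 24.5 and 29.4 CPM with panobinostat, 53.5, 42.4 and 55.3 CPM with both drugs and 142, 132 and 157 CPM with vehicle. The libraries with both drugs lay between those with panobinostat and those with vehicle. The log2 fold change of MCM2 was -2.39 ± 0.12, edgeR adjusted p = 5.5e-15 with panobinostat and -1.51 ± 0.11, edgeR adjusted p = 9.27e-12 with both drugs, and its change with CX-5461 did not pass (0.18 ± 0.10, edgeR adjusted p = 0.249). MCM5 had 85.9, 72.8 and 87.7 CPM with CX-5461, 17.7, 11.9 and 11.1 CPM with panobinostat, 24.03, 22.1 and 28.2 CPM with both drugs and 73.96, 75.9 and 83.8 CPM with vehicle. MCM6 had 65.7, 65.2 and 64.1 CPM with CX-5461, 21.7, 17.9 and 22.4 CPM with panobinostat, 25.4, 25.6 and 34.5 CPM with both drugs and 78.5, 69.1 and 84.8 CPM with vehicle. In both genes all panobinostat libraries and all libraries with both drugs lay below all vehicle libraries. The log2 fold change of the other helicase subunits with panobinostat was -1.24 for MCM3, -2.32 for MCM4, -2.53 for MCM5, -1.91 for MCM6 and -2.36 for MCM7. Of MCM2 to MCM7, MCM7 alone was called higher with CX-5461 (0.65 ± 0.11, edgeR adjusted p = 0.000183). MCM10, which helps the loaded helicase to start, had 82.3, 78.2 and 79.4 CPM with CX-5461, 15.7, 12.6 and 16.9 CPM with panobinostat, 38.03, 27.6 and 40.2 CPM with both drugs and 39.6, 44.1 and 56.1 CPM with vehicle. MCM10 rose with CX-5461 (0.78 ± 0.14, edgeR adjusted p = 0.000235), fell with panobinostat (-1.63 ± 0.16, edgeR adjusted p = 2.14e-09) and overlapped vehicle with both drugs, where it was still called lower (-0.41 ± 0.15, edgeR adjusted p = 0.015).

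CDC45 and GINS join the helicase to make its active form. CDC45 had 40.98, 43.02 and 52.8 CPM with CX-5461, 11.7, 5.78 and 9.5996 CPM with panobinostat, 17.97, 12.1 and 18.8 CPM with both drugs and 37.7, 32.2 and 36.8 CPM with vehicle in MM1.S. It fell with panobinostat (-2.00 ± 0.20, edgeR adjusted p = 3.01e-09) with no overlap, and its difference with CX-5461 missed the threshold (0.35 ± 0.16, edgeR adjusted p = 0.139). GINS2 had 37.8, 31.9 and 40.002 CPM with CX-5461, 11.9, 7.18 and 9.22 CPM with panobinostat, 16.6, 10.8 and 14.8 CPM with both drugs and 34.5, 23.9 and 26.4 CPM with vehicle. Its CX-5461 and vehicle libraries overlapped, and it fell with panobinostat (-1.60 ± 0.20, edgeR adjusted p = 9.05e-08), as did GINS1 (-0.85) and GINS3 (-2.27). GINS4 departed from the other 3 GINS genes, with 28.6, 23.6 and 31.4 CPM with CX-5461, 10.1, 6.48 and 9.22 CPM with panobinostat, 23.6, 16.3 and 22.1 CPM with both drugs and 9.25, 10.7 and 12.4 CPM with vehicle. GINS4 rose with CX-5461 (1.36 ± 0.18, edgeR adjusted p = 7.69e-06) and with both drugs (0.93 ± 0.19, edgeR adjusted p = 0.000136), with no overlap with vehicle in either, while its panobinostat and vehicle libraries overlapped (-0.34 ± 0.21, edgeR adjusted p = 0.158). GINS4 exons overlap those of AC009630.2 on the opposite strand by up to 814 bases. The kinase CDC7 had 12.4, 11.8 and 12.6 CPM with CX-5461, 6.84, 7.88 and 9.22 CPM with panobinostat, 7.76, 11.5 and 7.01 CPM with both drugs and 10.6, 7.67 and 14.4 CPM with vehicle, overlapping in all groups and not called in MM1.S. Its activating subunit DBF4 had 26.6, 26.2 and 29.8 CPM with CX-5461, 13.7, 16.1 and 9.41 CPM with panobinostat, 14.2, 17.3 and 11.4 CPM with both drugs and 34.7, 37.7 and 39.7 CPM with vehicle. Every treated library lay below every vehicle library, and DBF4 was called lower with CX-5461 (-0.44 ± 0.15, edgeR adjusted p = 0.0486) and with panobinostat (-1.51 ± 0.17, edgeR adjusted p = 2.05e-08).

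**Figure D3:**
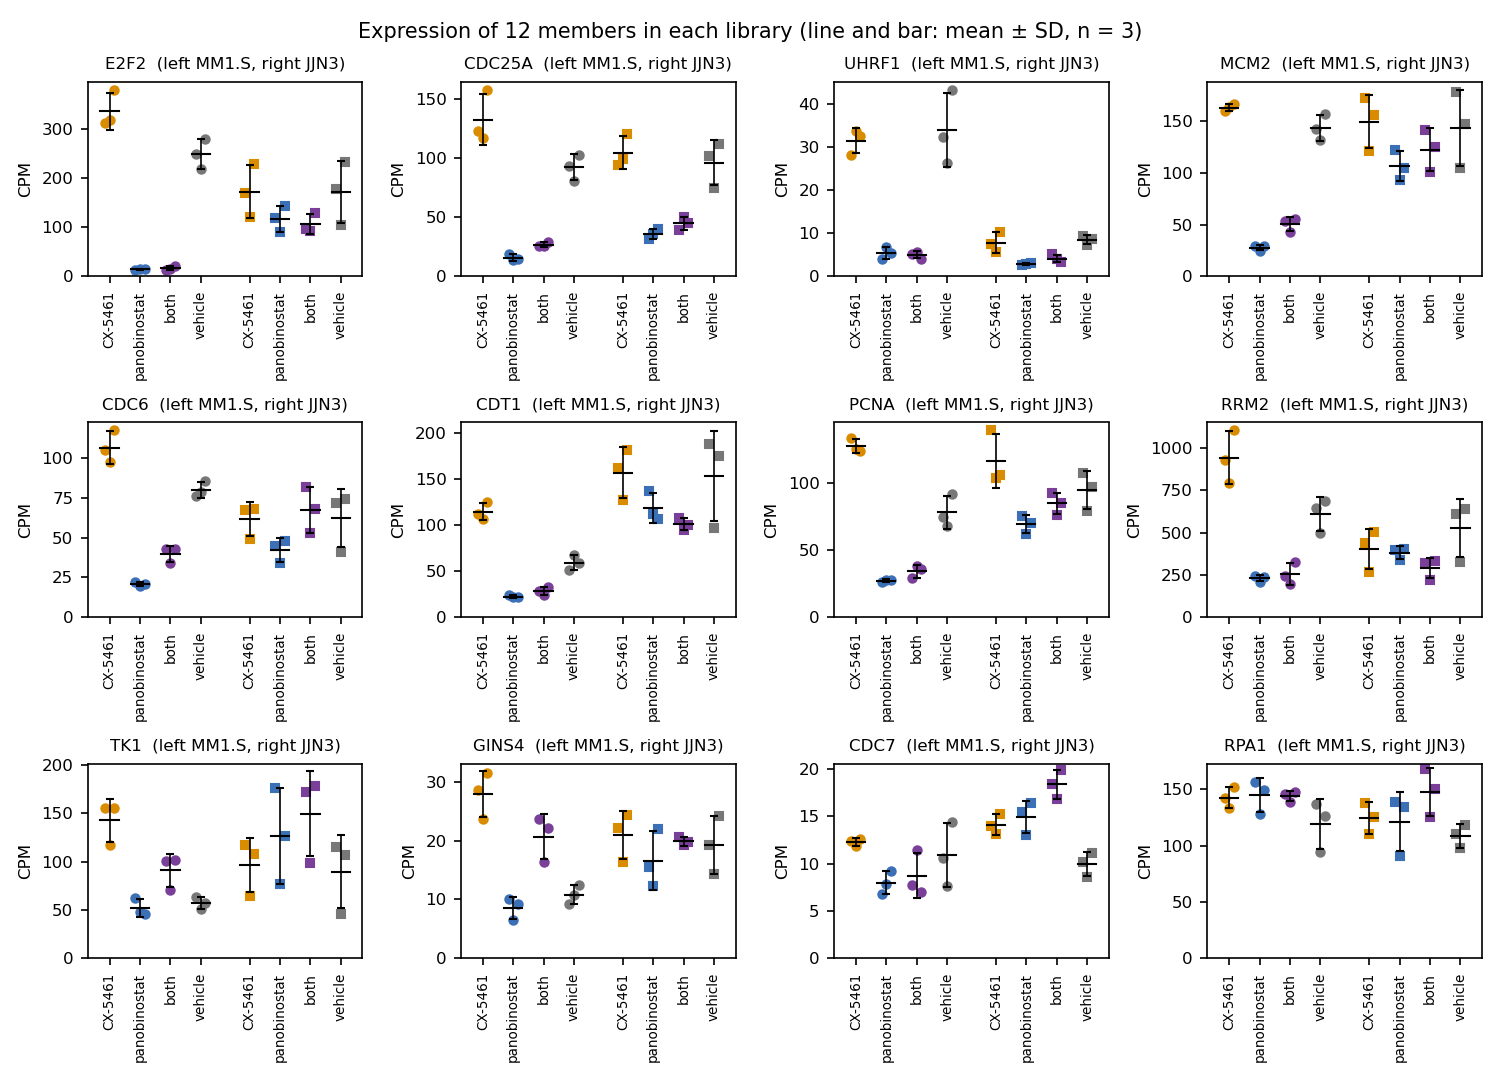
Normalised read count in CPM (TMM-scaled within each line) of 12 members in each library, with the mean and SD of each group of 3, MM1.S on the left of each panel and JJN3 on the right, on linear axes from 0. E2F2, MCM2 and UHRF1 lie far below vehicle with panobinostat in MM1.S, TK1 and GINS4 rise above vehicle with CX-5461 there, and CDC7 rises with panobinostat in JJN3.

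Among polymerases and primase, 5 of 8 members rose with CX-5461 in MM1.S, against 9.68% of all genes. With panobinostat 5 fell and 1 rose, against 32.9% and 36.9% of all genes. POLA1, the catalytic subunit of the polymerase that extends primers, had 83.7, 72.2 and 69.2 CPM with CX-5461, 37.2, 29.4 and 30.1 CPM with panobinostat, 56.8, 42.4 and 47.8 CPM with both drugs and 68.9, 66.001 and 63.2 CPM with vehicle. It fell with panobinostat (-1.04 ± 0.13, edgeR adjusted p = 9.6e-08) and its higher level with CX-5461 was not called (0.18 ± 0.12, edgeR adjusted p = 0.314). POLD1, the catalytic subunit of the lagging strand polymerase, had 32.8, 30.5 and 39.4 CPM with CX-5461, 16.7, 13.5 and 16.9 CPM with panobinostat, 18.2, 15.96 and 25.8 CPM with both drugs and 20.2, 21.5 and 17.9 CPM with vehicle. It rose with CX-5461 (0.79 ± 0.16, edgeR adjusted p = 0.00116), and although every panobinostat library was below every vehicle library the difference missed the threshold (-0.34 ± 0.18, edgeR adjusted p = 0.0933). PRIM2, a primase subunit, went against the rest, with 10.6, 9.26 and 8.28 CPM with CX-5461, 12.3, 12.4 and 10.9 CPM with panobinostat, 10.41, 13.5 and 10.9 CPM with both drugs and 8.55, 3.29 and 5.97 CPM with vehicle. Its libraries with panobinostat and with both drugs all lay above those with vehicle, and it was called higher with panobinostat (0.97 ± 0.24, edgeR adjusted p = 0.000965) and with both drugs (0.94 ± 0.24, edgeR adjusted p = 0.00127).

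PCNA, the sliding clamp, had 134, 125 and 124 CPM with CX-5461, 25.9, 27.5 and 28.05 CPM with panobinostat, 28.9, 37.9 and 35.6 CPM with both drugs and 74.3, 67.97 and 91.9 CPM with vehicle in MM1.S. No group overlapped vehicle, and the change was 0.70 ± 0.11, edgeR adjusted p = 7.78e-05 with CX-5461, -1.53 ± 0.13, edgeR adjusted p = 8.67e-11 with panobinostat and -1.19 ± 0.12, edgeR adjusted p = 4.34e-09 with both drugs. RFC3, of the clamp loader, had 35.3, 34.04 and 34.9 CPM with CX-5461, 12.1, 6.83 and 8.85 CPM with panobinostat, 13.8, 10.8 and 14.2 CPM with both drugs and 17.6, 24.997 and 21.4 CPM with vehicle. It rose with CX-5461 (0.71 ± 0.16, edgeR adjusted p = 0.00289) and fell with panobinostat (-1.21 ± 0.19, edgeR adjusted p = 4.05e-06), and RFC2, RFC4 and RFC5 also fell (-2.00, -1.17 and -1.24). RPA1, which coats single-stranded DNA, had 142, 133 and 152 CPM with CX-5461, 157, 128 and 149.8 CPM with panobinostat, 146, 139 and 148 CPM with both drugs and 137, 94.7 and 126 CPM with vehicle. Its panobinostat and vehicle libraries overlapped, and it was called slightly higher (0.28 ± 0.12, edgeR adjusted p = 0.0372). RPA3 of the same complex had 109.6, 89.5 and 100.3 CPM with panobinostat against 75.7, 64.03 and 81.6 CPM with vehicle, without overlap, and was also higher (0.43 ± 0.12, edgeR adjusted p = 0.00305), whereas RPA2 was lower (-0.98 ± 0.11, edgeR adjusted p = 1.7e-08).

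FEN1, which cuts the flaps of Okazaki fragments on the lagging strand, had 924, 876 and 982 CPM with CX-5461, 138, 113 and 120.3 CPM with panobinostat, 164, 143 and 179 CPM with both drugs and 695, 601 and 694 CPM with vehicle in MM1.S. It was 5.37-fold lower with panobinostat (-2.43 ± 0.11, edgeR adjusted p = 6.8e-16), rose with CX-5461 (0.48 ± 0.10, edgeR adjusted p = 0.00147) and fell with both drugs (-2.03 ± 0.11, edgeR adjusted p = 1.18e-14), with no overlap in any of these. LIG1, which seals the fragments, had 144, 128 and 152 CPM with CX-5461, 24.9, 21.01 and 30.9 CPM with panobinostat, 41.4, 40.6 and 54.2 CPM with both drugs and 62.1, 81.6 and 76.3 CPM with vehicle. No group overlapped vehicle, and LIG1 rose with CX-5461 (0.95 ± 0.13, edgeR adjusted p = 8.97e-06) and fell with panobinostat (-1.52 ± 0.15, edgeR adjusted p = 1.48e-09). UNG, which removes uracil from DNA, had 42.7, 45.2 and 39.7 CPM with CX-5461, 12.9, 19.4 and 15.999 CPM with panobinostat, 20.6, 13.96 and 16.05 CPM with both drugs and 55.99, 36.4 and 63.9 CPM with vehicle. It fell with panobinostat (-1.70 ± 0.19, edgeR adjusted p = 2.66e-08), and its CX-5461 libraries overlapped those with vehicle.

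The nucleotide supply genes did not all move alike in MM1.S. TK1, which salvages thymidine, had 155, 117 and 156 CPM with CX-5461, 62.4, 48.2 and 45.7 CPM with panobinostat, 100.3, 70.98 and 102 CPM with both drugs and 63.5, 51.3 and 57.1 CPM with vehicle. TK1 rose with CX-5461 (1.31 ± 0.15, edgeR adjusted p = 1.14e-06) and with both drugs (0.66 ± 0.15, edgeR adjusted p = 0.00042), above all vehicle libraries each time, and its panobinostat libraries overlapped vehicle (-0.14 ± 0.15, edgeR adjusted p = 0.413). RRM2, the S phase subunit of ribonucleotide reductase, had 932, 795 and 1106 CPM with CX-5461, 242, 210.1 and 237 CPM with panobinostat, 241, 196 and 325 CPM with both drugs and 646, 499 and 686 CPM with vehicle. It rose with CX-5461 (0.63 ± 0.17, edgeR adjusted p = 0.0157) and fell with panobinostat (-1.41 ± 0.17, edgeR adjusted p = 1.74e-06) and with both drugs (-1.26 ± 0.17, edgeR adjusted p = 5.45e-06). RRM1, the large subunit of the same enzyme, had 489.7, 436 and 505 CPM with CX-5461, 80.9, 80.4 and 86.02 CPM with panobinostat, 97.2, 81.95 and 79.7 CPM with both drugs and 323, 303 and 339 CPM with vehicle. All CX-5461 libraries lay above vehicle and all libraries with panobinostat or both drugs below it, and the change was 0.57 ± 0.10, edgeR adjusted p = 0.000157 with CX-5461 and -1.96 ± 0.10, edgeR adjusted p = 1.3e-14 with panobinostat. DUT, which removes dUTP, had 203, 191 and 195 CPM with CX-5461, 72.01, 71.4 and 81.3 CPM with panobinostat, 87.03, 79.8 and 92.8 CPM with both drugs and 186, 176 and 202 CPM with vehicle. Its change with CX-5461 was 0.06 ± 0.10, edgeR adjusted p = 0.718 with overlapping libraries, and it fell with panobinostat (-1.33 ± 0.10, edgeR adjusted p = 1.43e-11). DUT has 8 listed pseudogenes, PCNA has 4, and DBF4, RPA2, UNG and RRM2 have 3 each, so reads from such copies could be counted on the gene or lost from it. TYMS, the thymidylate synthase that makes thymidylate anew, had 0 to 5 counts in every library of both lines and was not tested. In the GENCODE annotation of GRCh38 its exons overlap those of ENOSF1 on the opposite strand by up to 967 bases, and the strand setting of the counting is not given in the sources used here.

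Of the 53 tested members, E2F2, an activating E2F factor, had the lowest log2 fold change with panobinostat in MM1.S, followed by UHRF1, CDC25A and MCM5. E2F2 had 312, 318 and 379 CPM with CX-5461, 13.5, 15.6 and 14.1 CPM with panobinostat, 12.5, 15.1 and 20.8 CPM with both drugs and 249.1, 218 and 280.4 CPM with vehicle. Panobinostat left it 17.3-fold below vehicle (-4.11 ± 0.15, edgeR adjusted p = 2.26e-17), and with both drugs it was 15.4-fold lower (-3.95 ± 0.15, edgeR adjusted p = 2.9e-17), while it rose with CX-5461 (0.43 ± 0.12, edgeR adjusted p = 0.0135). E2F1 had 133, 124 and 153 CPM with CX-5461, 24.7, 12.4 and 19.6 CPM with panobinostat, 32.7, 26.1 and 48.1 CPM with both drugs and 83.7, 72.4 and 85.6 CPM with vehicle. It too rose with CX-5461 (0.76 ± 0.19, edgeR adjusted p = 0.0147) and fell with panobinostat (-2.10 ± 0.23, edgeR adjusted p = 9.65e-07), with no overlap. CDC25A, the phosphatase that activates CDK2, had 123, 117 and 157 CPM with CX-5461, 18.7, 13.5 and 14.9 CPM with panobinostat, 25.5, 25.3 and 28.8 CPM with both drugs and 92.97, 80.7 and 103 CPM with vehicle. The 3 treated groups all lay apart from vehicle, at 0.52 ± 0.12, edgeR adjusted p = 0.00356 with CX-5461, -2.56 ± 0.15, edgeR adjusted p = 6.43e-14 with panobinostat and -1.80 ± 0.14, edgeR adjusted p = 1.38e-11 with both drugs.

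Cyclin E1 (CCNE1), which drives CDK2, had 40.8, 41.6 and 39.3 CPM with CX-5461, 11.5, 17.7 and 12.6 CPM with panobinostat, 17.2, 17.95 and 17.9 CPM with both drugs and 37.7, 27.2 and 31.7 CPM with vehicle in MM1.S. It fell with panobinostat (-1.21 ± 0.16, edgeR adjusted p = 2.77e-07), and its CX-5461 libraries, all above vehicle, gave no call (0.33 ± 0.14, edgeR adjusted p = 0.113). Cyclin E2 (CCNE2) went the other way with both drugs, with 3.28, 2.28 and 1.97 CPM with CX-5461, 2.01, 1.23 and 1.69 CPM with panobinostat, 6.05, 2.83 and 5.90 CPM with both drugs and 1.05, 1.53 and 0.996 CPM with vehicle. It rose with both drugs (2.04 ± 0.40, edgeR adjusted p = 6.42e-05). The CCNE2 exons overlap INTS8 exons on the opposite strand by up to 1629 bases, so its reads are uncertain. Exons of MCM2 (AC023593.1, 1113 bases), MCM7 (AP4M1, 216 bases), FEN1 (TMEM258, 166 bases), DBF4 (SLC25A40, 121 bases) and RPA3 (UMAD1, 70 bases) also overlap an opposite-strand gene.

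UHRF1, which guides upkeep of DNA methylation behind the fork, had 28.2, 33.8 and 32.4 CPM with CX-5461, 4.02, 6.83 and 5.46 CPM with panobinostat, 5.11, 5.65 and 4.06 CPM with both drugs and 32.3, 26.3 and 43.1 CPM with vehicle in MM1.S. It fell with panobinostat (-2.63 ± 0.21, edgeR adjusted p = 3.17e-11) and with both drugs (-2.78 ± 0.21, edgeR adjusted p = 1.26e-11), and its CX-5461 and vehicle libraries overlapped (-0.12 ± 0.16, edgeR adjusted p = 0.688). SLBP, which binds histone mRNA, had 113, 110.2 and 110.5 CPM with CX-5461, 86.1, 79.2 and 81.7 CPM with panobinostat, 91.01, 95.2 and 87.4 CPM with both drugs and 125, 109 and 119 CPM with vehicle. It fell with panobinostat by less than most members (-0.52 ± 0.10, edgeR adjusted p = 3.76e-05). CLSPN, a fork protection factor, had 176, 154 and 175 CPM with CX-5461, 69.4, 52.5 and 50.8 CPM with panobinostat, 97.4, 75.3 and 99.98 CPM with both drugs and 91.8, 89.5 and 114 CPM with vehicle. It rose with CX-5461 (0.77 ± 0.13, edgeR adjusted p = 9.93e-05) and fell with panobinostat (-0.78 ± 0.13, edgeR adjusted p = 1.33e-05), and with both drugs it overlapped vehicle. The chromatin assembly genes CHAF1A and CHAF1B rose with CX-5461 (0.65 and 0.53) and fell with panobinostat (-0.93 and -1.08).

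The count of 29 members called with CX-5461 in MM1.S was 18 without replicate 3 of that group, with 6.95% of all genes then called higher and 4.52% lower, and 21 to 30 without any other single library. CDKN1A, which encodes the CDK inhibitor p21 and is a p53 target, had 679.7, 767 and 756 CPM with CX-5461 against 47.4, 38.8 and 51.8 CPM with vehicle in these libraries (3.99 ± 0.14, edgeR adjusted p = 1.12e-16). In JJN3, CDKN1A had 30.5, 48.5 and 28.96 CPM with CX-5461 against 22.1, 29.5 and 26.3 CPM with vehicle, where CX-5461 replicate 3 lay within the vehicle range and no call was made (0.46 ± 0.20, edgeR adjusted p = 0.851). Within each of the 3 replicate numbers the CX-5461 library was the higher one, and with the replicate block the change was 0.44 ± 0.14, edgeR adjusted p = 0.143, also not called.

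Adding CX-5461 to panobinostat raised members in MM1.S. Set against panobinostat alone, 19 members were higher with both drugs and 0 were lower, against 2.44% of all genes higher and 1.65% lower, with a median log2 fold change of 0.39. All libraries with both drugs lay above all with panobinostat for 27 members and below them for 0, against 10.9% and 9.69% of all genes. Scaling to library size alone gave 401 genes higher and 150 lower in place of 293 and 198, and 21 members higher and 0 lower. GINS4 had 23.6, 16.3 and 22.1 CPM with both drugs against 10.1, 6.48 and 9.22 CPM with panobinostat (1.27 ± 0.20, edgeR adjusted p = 0.000405). MCM10 had 38.03, 27.6 and 40.2 CPM with both drugs against 15.7, 12.6 and 16.9 CPM with panobinostat (1.22 ± 0.16, edgeR adjusted p = 6.16e-05). RFC2 had 16.5, 10.3 and 18.8 CPM with both drugs against 9.45, 5.60 and 6.21 CPM with panobinostat (1.10 ± 0.22, edgeR adjusted p = 0.00392). In all 3 genes the groups did not overlap. E2F2 and UHRF1 were not called here (0.16 ± 0.17 and -0.15 ± 0.27). The 19 calls became 11 without panobinostat replicate 3 (against 0.845% of all genes higher and 0.577% lower) and 12 without replicate 1 of both drugs (against 0.985% and 0.619%). Without replicate 2 of every MM1.S group they were 16, all higher, against 1.3% of all genes higher and 0.721% lower.

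The comparison of CX-5461 with vehicle shares no library with that of both drugs against panobinostat. In MM1.S, 13 members were higher in both, which is 46.4% of the 28 in the first and 68.4% of the 19 in the second. Of all genes tested, 112 were higher in both, which is 9.61% of the 1165 in the first and 38.2% of the 293 in the second. The difference between these shares was not tested. They were CDC6, MCM7, MCM10, GINS4, POLD3, RFC2, FEN1, LIG1, TK1, E2F1, CDC25A, CHAF1A and CLSPN. MCM2, MCM3, MCM5, CDC45, POLA1 and CCNE2 were called in the second alone. Whether the 2 effects differed was tested as departure from additivity, the log2 fold change with both drugs minus the sum of those with each drug. Of the members, 3 were above additivity and 2 below, against 1.87% and 3.65% of all genes. MCM2 (0.69 ± 0.16, edgeR adjusted p = 0.0113), MCM5 (0.80 ± 0.21, edgeR adjusted p = 0.0197) and MCM6 (0.72 ± 0.19, edgeR adjusted p = 0.0206) lay above, and CDT1 (-0.62 ± 0.18, edgeR adjusted p = 0.0465) and RRM1 (-0.50 ± 0.14, edgeR adjusted p = 0.0356) below. The other 4 of the 6 genes called in the second alone did not pass. These 5 calls became 3 without CX-5461 replicate 1 or 3, replicate 3 of both drugs, panobinostat replicate 2 or vehicle replicate 1, 2 without panobinostat replicate 3 and 1 without vehicle replicate 3. Without replicate 2 of every MM1.S group 1 member was called, above additivity, against 0.688% of all genes above and 2.09% below.

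**Figure D4:**
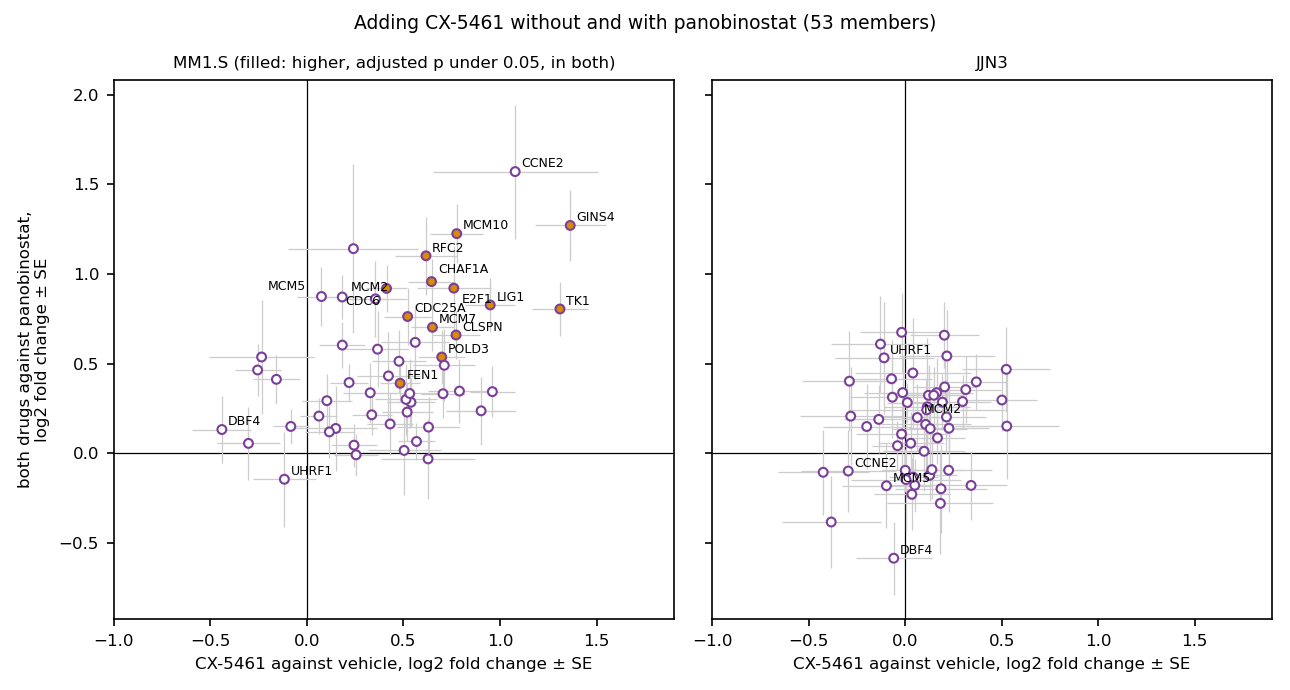
Log2 fold change ± SE of the 53 tested members for CX-5461 against vehicle (horizontal) and both drugs against panobinostat (vertical). MM1.S is on the left (13 filled members higher in both) and JJN3 on the right (0 called in either without the replicate block). The MM1.S members lie mostly up and to the right of 0, with GINS4 at 1.36 and 1.27.

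In JJN3 the members that fell most with panobinostat were UHRF1, CDC25A, UNG and LIG1. CDC25A had 93.7, 99.2 and 120.3 CPM with CX-5461, 31.3, 35.8 and 40.1 CPM with panobinostat, 39.2, 50.2 and 44.8 CPM with both drugs and 101, 74.8 and 112 CPM with vehicle. Every panobinostat library was below every vehicle library, and the log2 fold change was -1.43 ± 0.17, edgeR adjusted p = 1.55e-05 with panobinostat and -1.10 ± 0.16, edgeR adjusted p = 4.77e-05 with both drugs. UNG had 16.5, 19.96 and 13.998 CPM with CX-5461, 5.70, 10.1 and 7.91 CPM with panobinostat, 9.85, 10.99 and 10.2 CPM with both drugs and 16.9, 29.7 and 15.1 CPM with vehicle. It fell with panobinostat (-1.39 ± 0.27, edgeR adjusted p = 0.00113) and with both drugs (-0.99 ± 0.25, edgeR adjusted p = 0.00531), without overlap. UHRF1 had 7.58, 5.51 and 10.3 CPM with CX-5461, 2.68, 2.79 and 3.09 CPM with panobinostat, 5.06, 3.92 and 3.29 CPM with both drugs and 9.36, 7.28 and 8.73 CPM with vehicle. It fell with panobinostat (-1.56 ± 0.29, edgeR adjusted p = 0.000897), and LIG1 fell too (-0.93 ± 0.19, edgeR adjusted p = 0.00172), with 44.8, 36.2 and 41.3 CPM with panobinostat against 76.9, 58.3 and 98.003 CPM with vehicle.

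CDC7 was the 1 member called higher with panobinostat in JJN3, with 13.9, 13.1 and 15.3 CPM with CX-5461, 15.4, 13.1 and 16.4 CPM with panobinostat, 18.4, 16.9 and 19.9 CPM with both drugs and 10.2, 8.56 and 11.1 CPM with vehicle. All libraries with either drug lay above those with vehicle, the call with panobinostat was 0.59 ± 0.18, edgeR adjusted p = 0.025 and that with both drugs 0.88 ± 0.18, edgeR adjusted p = 0.000845. RPA1, with 138, 110.04 and 125 CPM with CX-5461, 138, 90.9 and 134 CPM with panobinostat, 168, 125 and 150.3 CPM with both drugs and 110.2, 97.6 and 119 CPM with vehicle, was higher with both drugs (0.44 ± 0.16, edgeR adjusted p = 0.0343), as was RPA3 (0.46 ± 0.14, edgeR adjusted p = 0.0185), with 204, 154 and 177 CPM with both drugs against 148, 105 and 137 CPM with vehicle, above it in every library. DBF4, the partner of CDC7, was lower with both drugs (-0.81 ± 0.20, edgeR adjusted p = 0.00419).

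For licensing, JJN3 gave calls for CDT1 alone in the fit without the replicate block. The fit with the block, given below, also called CDC6 and ORC1 lower with panobinostat. CDC6 had 67.5, 49.2 and 68.2 CPM with CX-5461, 45.1, 33.9 and 48.2 CPM with panobinostat, 82.003, 52.99 and 67.9 CPM with both drugs and 72.1, 41.1 and 74.1 CPM with vehicle in JJN3. Its groups overlapped vehicle, and with panobinostat the change was -0.56 ± 0.22, edgeR adjusted p = 0.0745. CDT1 had 162, 127 and 182 CPM with CX-5461, 137, 113 and 107 CPM with panobinostat, 108, 95.2 and 101 CPM with both drugs and 188, 97.05 and 175 CPM with vehicle. It was lower with both drugs (-0.60 ± 0.20, edgeR adjusted p = 0.0253) although the libraries overlapped at vehicle replicate 2. GMNN had 57.5, 35.4 and 45.2 CPM with CX-5461, 48.4, 31.7 and 32.98 CPM with panobinostat, 48.1, 44.4 and 38.1 CPM with both drugs and 44.2, 29.5 and 45.3 CPM with vehicle. ORC1 had 22.04, 12.7 and 14.5 CPM with CX-5461, 13.1, 10.3 and 9.06 CPM with panobinostat, 11.96, 12.4 and 12.1 CPM with both drugs and 18.5, 10.7 and 16.6 CPM with vehicle. For both genes all groups overlapped vehicle, and neither was called without the block.

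MCM4, MCM6 and MCM7 fell with panobinostat in JJN3 (-0.87 ± 0.24, -0.52 ± 0.14 and -0.60 ± 0.14) and with both drugs, where MCM4 stood at -0.97 ± 0.24, edgeR adjusted p = 0.00488, and the other helicase genes were not called. MCM4 had 200.1, 131 and 198 CPM with CX-5461, 158, 94.96 and 136 CPM with panobinostat, 137, 99.9 and 125 CPM with both drugs and 287, 157 and 267 CPM with vehicle. All its libraries with both drugs lay below those with vehicle, whereas panobinostat replicate 1 lay just above vehicle replicate 2. MCM5 had 61.8, 49.03 and 82.5 CPM with CX-5461, 64.5, 40.5 and 50.9 CPM with panobinostat, 48.7, 40.4 and 48.7 CPM with both drugs and 76.5, 44.4 and 85.96 CPM with vehicle, with vehicle replicate 2 inside the range of the panobinostat libraries. MCM2 had 172, 121 and 156 CPM with CX-5461, 122, 93.03 and 105 CPM with panobinostat, 142, 101 and 125 CPM with both drugs and 179, 105 and 147 CPM with vehicle. MCM10 had 55.8, 39.2 and 50.2 CPM with CX-5461, 34.9, 25.3 and 34.3 CPM with panobinostat, 51.3, 48.7 and 49.5 CPM with both drugs and 49.2, 30.8 and 46.2 CPM with vehicle. CDC45 had 32.4, 28.7 and 36.5 CPM with CX-5461, 23.3, 19.3 and 19.5 CPM with panobinostat, 29.1, 23.2 and 26.1 CPM with both drugs and 34.9, 20.03 and 32.4 CPM with vehicle. In these 3 genes vehicle replicate 2 lay within the range of the panobinostat libraries, and none was called with panobinostat (-0.42 ± 0.19, -0.41 ± 0.18 and -0.49 ± 0.19). GINS2 had 40.98, 22.8 and 38.5 CPM with CX-5461, 29.2, 15.4 and 21.2 CPM with panobinostat, 36.6, 20.8 and 32.5 CPM with both drugs and 41.8, 20.2 and 37.6 CPM with vehicle, again overlapping, while GINS1 fell with panobinostat (-0.63 ± 0.17, edgeR adjusted p = 0.0118).

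POLA1 had 25.8, 17.5 and 26.4 CPM with CX-5461, 17.9, 15.2 and 19.9 CPM with panobinostat, 26.7, 20.8 and 18.2 CPM with both drugs and 31.3, 17.5 and 24.5 CPM with vehicle in JJN3. POLD1 had 37.4, 26.99 and 45.7 CPM with CX-5461, 34.03, 25.7 and 29.1 CPM with panobinostat, 25.9, 22.8 and 28.9 CPM with both drugs and 33.5, 19.3 and 43.8 CPM with vehicle. Groups overlapped for both genes and no call was made, and of the polymerase genes POLD3 fell (-0.74 ± 0.14, edgeR adjusted p = 0.00124). PCNA had 139, 103 and 106 CPM with CX-5461, 75.6, 62.2 and 70.4 CPM with panobinostat, 92.7, 76.5 and 85.01 CPM with both drugs and 108, 79.4 and 96.8 CPM with vehicle. It fell with panobinostat without overlap (-0.45 ± 0.15, edgeR adjusted p = 0.0356). RFC3 had 32.7, 31.7 and 27.4 CPM with CX-5461, 33.7, 28.1 and 26.8 CPM with panobinostat, 30.2, 31.4 and 21.6 CPM with both drugs and 30.1, 25.1 and 28.2 CPM with vehicle and did not differ detectably, whereas RFC2 and RFC4 fell with panobinostat (-0.72 ± 0.22 and -0.68 ± 0.23). FEN1 had 447, 375 and 479 CPM with CX-5461, 260.2, 219 and 287 CPM with panobinostat, 369, 292 and 348 CPM with both drugs and 362, 256 and 389.6 CPM with vehicle, and CX-5461, panobinostat and vehicle libraries overlapped.

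TK1 had 117, 64.2 and 108 CPM with CX-5461, 176, 76.7 and 127 CPM with panobinostat, 172, 98.7 and 178 CPM with both drugs and 115, 46.1 and 106 CPM with vehicle in JJN3. Replicate 2 was the lowest library in each group, and the groups overlapped. RRM2 had 439, 269.7 and 502 CPM with CX-5461, 400.3, 335 and 404 CPM with panobinostat, 319, 222 and 332 CPM with both drugs and 613, 329 and 638 CPM with vehicle. It was lower with both drugs (-0.85 ± 0.26, edgeR adjusted p = 0.0177), and RRM1 was lower with panobinostat (-0.61 ± 0.13, edgeR adjusted p = 0.00215) and with both drugs (-0.75 ± 0.13, edgeR adjusted p = 0.000198). DUT had 244, 163 and 208 CPM with CX-5461, 176, 133 and 154 CPM with panobinostat, 179.8, 143 and 158 CPM with both drugs and 243, 153 and 206 CPM with vehicle, with no call.

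E2F2 had 169, 119.9 and 229 CPM with CX-5461, 118, 90.5 and 142 CPM with panobinostat, 95.8, 92.4 and 129 CPM with both drugs and 179, 105 and 232 CPM with vehicle in JJN3. Its panobinostat libraries overlapped those with vehicle (-0.56 ± 0.29, edgeR adjusted p = 0.182), with vehicle replicate 2 at the low end. E2F1 had 72.7, 70.5 and 94.9 CPM with CX-5461, 48.4, 46.5 and 43.97 CPM with panobinostat, 40.8, 37.9 and 43.98 CPM with both drugs and 65.6, 41.9 and 80.2 CPM with vehicle. It was lower with both drugs (-0.62 ± 0.19, edgeR adjusted p = 0.0151) and not called with panobinostat (-0.44 ± 0.19, edgeR adjusted p = 0.0967). CCNE1 had 36.8, 24.5 and 37.2 CPM with CX-5461, 17.4, 16.5 and 21.02 CPM with panobinostat, 20.8, 25.5 and 29.95 CPM with both drugs and 26.1, 14.4 and 28.001 CPM with vehicle. CCNE2 had 5.51, 7.60 and 10.6 CPM with CX-5461, 16.6, 10.7 and 15.8 CPM with panobinostat, 14.3, 11.97 and 14.02 CPM with both drugs and 10.96, 9.65 and 8.73 CPM with vehicle. Neither was called, although all CCNE2 libraries with both drugs were above vehicle. SLBP had 104, 119 and 107 CPM with CX-5461, 83.1, 90.03 and 90.1 CPM with panobinostat, 108, 103 and 109 CPM with both drugs and 108, 113 and 106 CPM with vehicle. It fell a little with panobinostat (-0.31 ± 0.11, edgeR adjusted p = 0.0404), and its libraries with both drugs overlapped vehicle. CLSPN had 63.01, 48.5 and 78.5 CPM with CX-5461, 37.5, 35.2 and 54.8 CPM with panobinostat, 46.6, 41.996 and 48.7 CPM with both drugs and 69.1, 39.7 and 83.6 CPM with vehicle, with no call.

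With a block for the replicate number, JJN3 gave more calls. With panobinostat, 34 members were lower and 4 higher under the block, against 19.5% and 22.4% of all genes, in place of 15 and 1. All 16 members called without the block were called under it. The 19 members called lower only under the block were MCM2 (-0.41 ± 0.09, edgeR adjusted p = 0.000462), CDC6 (-0.54 ± 0.11, edgeR adjusted p = 0.000251), E2F2 (-0.52 ± 0.10, edgeR adjusted p = 0.000194), RRM2 (-0.42 ± 0.10, edgeR adjusted p = 0.00197), ORC1, MCM3, MCM5, MCM10, CDC45, GINS2, GINS3, POLA1, RFC5, FEN1, DUT, E2F1, CHAF1A, CHAF1B and CLSPN. TK1 (0.52 ± 0.10, edgeR adjusted p = 0.000184), RPA3 (0.38 ± 0.09, edgeR adjusted p = 0.000652) and CCNE2 (0.57 ± 0.20, edgeR adjusted p = 0.0252) were called higher only there. With both drugs, 19 members were lower and 4 higher under the block, against 25.9% and 27.6% of all genes, with MCM2, MCM5, DUT, E2F2 and CLSPN lower and TK1 higher only under it. With CX-5461, FEN1 was higher (0.38 ± 0.08, edgeR adjusted p = 0.0124) and MCM4 lower (-0.41 ± 0.09, edgeR adjusted p = 0.0129) under the block, against 0.605% and 0.771% of all genes. Set against panobinostat alone, both drugs together gave 0 member calls without the block (8 members at an unadjusted p under 0.05 and 1 call by DESeq2, against 0.184% of genes called higher and 0.719% lower) and 9 higher and 2 lower under the block, against 5.78% and 6.48% of genes. All libraries with both drugs lay above those with panobinostat for 11 members and below them for 2, against 10.5% and 9.45% of genes. The 9 were ORC6, CDC6, MCM3, MCM10, GINS2, PCNA, RPA1, FEN1 and SLBP, and the 2 were DBF4 and RRM2. For additivity, CDC6 alone was called under the block (0.68 ± 0.16, edgeR adjusted p = 0.023), against 0.123% of genes above additivity and 0.797% below it. Scaling to library size alone gave 59 genes higher and 56 lower for both drugs against panobinostat in JJN3, in place of 21 and 82, and 0 members.

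Of the single libraries left out, vehicle replicate 2 moved the JJN3 count with panobinostat most, and the reason was not tested. Without that library, 34 members were lower and 0 higher with panobinostat, against 10.1% and 11.9% of all genes. Without vehicle replicate 1, 10 members were lower and 0 higher, against 8.77% and 11.6% of all genes. Without vehicle replicate 3, 9 were lower and 1 higher, against 7.97% and 11.3% of all genes. Without replicate 2 of every JJN3 group, 30 members were lower and 1 higher with panobinostat, against 11.1% and 14.2% of all genes, and 21 were lower and 4 higher with both drugs, against 17.5% and 20.6%. CX-5461 then still gave 0 member calls. CDC7 and SLBP lost their panobinostat call, and TK1 gained one.

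The response to panobinostat differed between the lines. In a fit of all 24 libraries, the JJN3 log2 fold change minus the MM1.S one was above 0 for 32 of 53 members and below 0 for 1 (edgeR, adjusted p under 0.05), against 18.9% and 14.4% of the 12872 genes tested, with a member median of 0.96 against 0.03 over all genes. Scaling to library size alone gave 1994 genes above and 2270 below in place of 2433 and 1851, with a shift of -0.128 in the median of all genes, and 26 members above and 1 below. E2F2 differed most (3.57 ± 0.39, edgeR adjusted p = 6.46e-07), followed by MCM5 (2.14 ± 0.32, edgeR adjusted p = 7.71e-06) and FEN1 (2.05 ± 0.20, edgeR adjusted p = 2.02e-09). CDC6 (1.39 ± 0.27, edgeR adjusted p = 0.000191), MCM2 (1.98 ± 0.24, edgeR adjusted p = 1.32e-07), PCNA (1.10 ± 0.21, edgeR adjusted p = 9.41e-05), E2F1 (1.68 ± 0.32, edgeR adjusted p = 0.000183) and CDC25A (1.15 ± 0.23, edgeR adjusted p = 0.000231) also differed. PRIM2 differed the other way (-1.14 ± 0.34, edgeR adjusted p = 0.00863). For TK1, UNG, LIG1, RPA1 and SLBP the difference did not pass, at 0.67 ± 0.50, 0.32 ± 0.34, 0.60 ± 0.26, -0.10 ± 0.21 and 0.22 ± 0.14, and of these TK1 (0.68 ± 0.16, edgeR adjusted p = 0.000549) and LIG1 (0.63 ± 0.20, edgeR adjusted p = 0.0126) passed under the replicate block. PRIM2 had 9.81, 8.36 and 7.88 CPM with CX-5461, 7.54, 6.22 and 7.52 CPM with panobinostat, 6.61, 8.24 and 6.75 CPM with both drugs and 7.97, 7.10 and 9.18 CPM with vehicle in JJN3, with panobinostat and vehicle libraries overlapping there.

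With both drugs, the difference between the lines was above 0 for 24 members and below 0 for 3, against 18.8% and 14.0% of all genes, with a median of 0.60. E2F2 (3.25 ± 0.39, edgeR adjusted p = 1.8e-06), FEN1 (2.05 ± 0.20, edgeR adjusted p = 1.55e-09) and UHRF1 (1.77 ± 0.35, edgeR adjusted p = 0.00023) lay highest, and CCNE2 (-1.56 ± 0.46, edgeR adjusted p = 0.00878), PRIM2 (-1.10 ± 0.33, edgeR adjusted p = 0.0105) and GINS4 (-0.88 ± 0.31, edgeR adjusted p = 0.0276) lay below. With CX-5461 the difference was below 0 for 2 members, GINS4 (-1.24 ± 0.30, edgeR adjusted p = 0.028) and LIG1 (-1.08 ± 0.24, edgeR adjusted p = 0.0143), and above 0 for 0, against 1.03% and 0.287% of all genes. In JJN3, GINS4 had 22.2, 16.3 and 24.3 CPM with CX-5461, 15.6, 12.2 and 21.99 CPM with panobinostat, 20.7, 19.2 and 19.7 CPM with both drugs and 19.3, 14.4 and 24.2 CPM with vehicle, and LIG1 had 74.2, 55.3 and 82.7 CPM with CX-5461 against 76.9, 58.3 and 98.003 CPM with vehicle. The CX-5461 and vehicle libraries of both genes overlapped in JJN3. TK1, at -1.19 ± 0.49, edgeR adjusted p = 0.356, and CDT1, at -0.92 ± 0.25, edgeR adjusted p = 0.0618, did not pass. Under the replicate block 11 members were below 0 and 0 above, against 2.89% and 1.63% of all genes, among them CDT1 (-0.90 ± 0.19, edgeR adjusted p = 0.00511) and TK1 (-1.16 ± 0.15, edgeR adjusted p = 1.06e-06). The 2 calls became 10 without JJN3 vehicle replicate 2 (against 1.33% of all genes below 0 and 0.532% above), 7 without replicate 2 of every JJN3 group (against 1.15% of all genes below 0 and 0.355% above), 1 without JJN3 CX-5461 replicate 2 or MM1.S CX-5461 replicate 1 or 3, and 0 without JJN3 vehicle replicate 3 or MM1.S vehicle replicate 1.

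**Figure D5:**
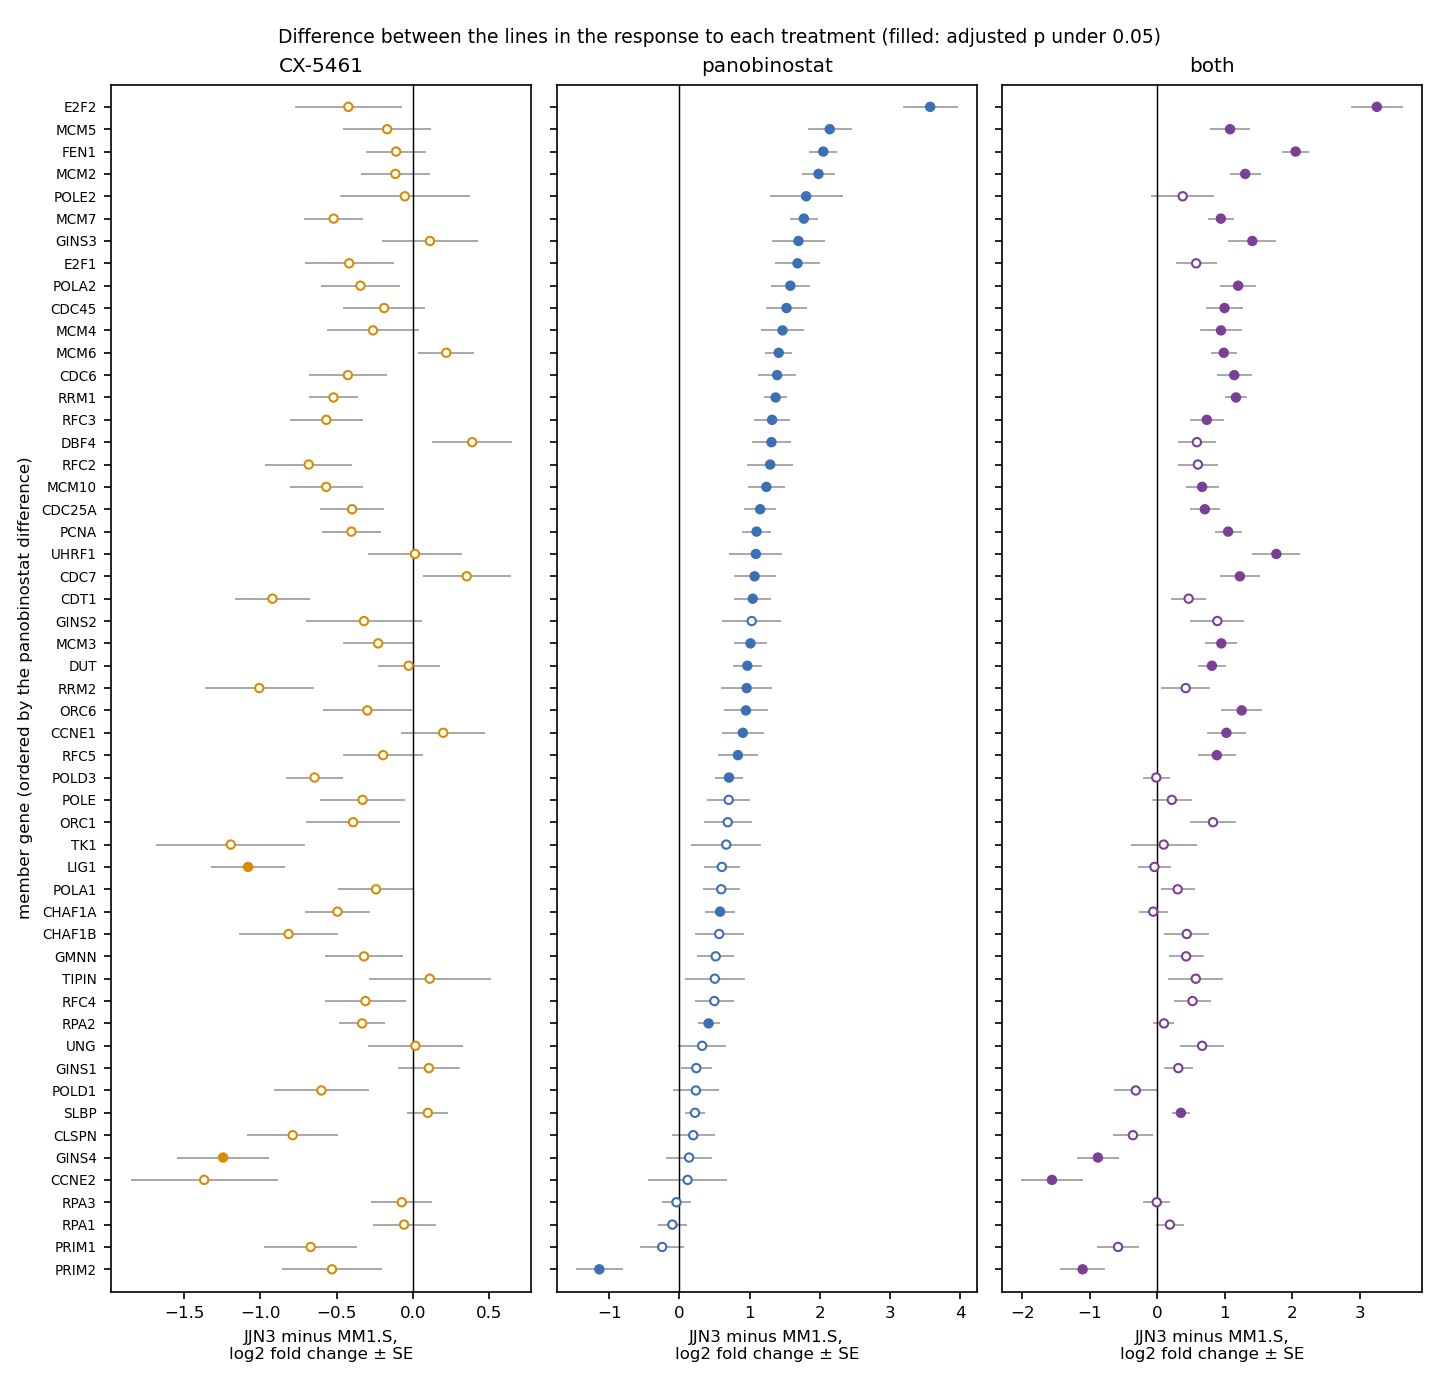
JJN3 log2 fold change minus the MM1.S one (± SE) of the 53 tested members for CX-5461, panobinostat and both drugs against vehicle, ordered by the panobinostat difference, with filled points at edgeR adjusted p under 0.05. With panobinostat most members lie above 0, E2F2 highest at 3.57 and PRIM2 lowest at -1.14, and with CX-5461 most lie below 0 and 2 are filled.

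Without drug, members differed between the lines in both directions, in smaller shares than all genes did. In JJN3 vehicle libraries set against MM1.S vehicle libraries, 11 members were higher and 11 lower, against 30.2% and 33.5% of all genes, a split that became 15 and 9 with scaling to library size alone. All JJN3 vehicle libraries lay above all MM1.S ones for 11 members and below them for 11, against 31.2% and 35.4% of all genes. The line cannot be told apart from the culture and library batch here. On levels scaled within each line, CDT1 had 188, 97.05 and 175 CPM in JJN3 against 50.9, 67.1 and 59.1 CPM in MM1.S (1.39 ± 0.18, edgeR adjusted p = 1.3e-07). UHRF1 had 9.36, 7.28 and 8.73 CPM in JJN3 against 32.3, 26.3 and 43.1 CPM in MM1.S (-2.00 ± 0.21, edgeR adjusted p = 1.6e-09). In both genes the lines did not overlap. UNG (-1.35 ± 0.22) and POLA1 (-1.43 ± 0.18) were lower in JJN3, and CCNE2 (3.04 ± 0.35) was higher. RFC5 had 60.2, 40.2 and 66.99 CPM in JJN3 against 30.2, 25.4 and 25.4 CPM in MM1.S (1.05 ± 0.19, edgeR adjusted p = 1.93e-05). MCM3 had 840.2, 589.9 and 907 CPM in JJN3 against 395, 348 and 410.01 CPM in MM1.S (1.03 ± 0.17, edgeR adjusted p = 5.32e-06). All JJN3 libraries of both genes lay above all of MM1.S, with JJN3 replicate 2 the lowest of the 3. E2F2 and MCM2 were not called (-0.52 ± 0.25 and 0.00 ± 0.16), although E2F2 was lower in JJN3 under the replicate block (-0.58 ± 0.10, edgeR adjusted p = 4.04e-06).

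The promoter matches can be set beside these calls as a description. Of the 40 members with a window that were lower with panobinostat in MM1.S, 25 (62.5%) held an E2F match, and of the other 6 tested members 1 did, CDC7 (16.7%). In JJN3 the shares were 8 of 12 members called lower (66.7%) and 18 of the other 34 (52.9%). Among the members called higher by CX-5461 treatment of MM1.S, 13 of 25 (52.0%) held a match, and of the other tested members 13 of 21 (61.9%). TK1, whose printed stretch holds no match, was among those higher with CX-5461, and E2F2, whose stretch holds 1, had the lowest log2 fold change with panobinostat in MM1.S but was not called with it in JJN3 without the replicate block.

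Genes around the members were counted in lists fixed with earlier results of these data known. In MM1.S, 9.68% of all genes rose and 7.06% fell with CX-5461, 36.9% and 32.9% with panobinostat, and 37% and 33.2% with both drugs. In JJN3, 15% of all genes rose and 10.9% fell with panobinostat. Of 28 tested regulators of RB, E2F and cyclins in MM1.S, 11 rose and 2 fell with CX-5461, 6 rose and 17 fell with panobinostat, and 8 rose and 14 fell with both drugs. RB1, the retinoblastoma gene, rose with CX-5461 (0.68 ± 0.15, edgeR adjusted p = 0.00203). CDK6, a kinase of early G1, fell (-0.48 ± 0.11, edgeR adjusted p = 0.00272), and CCND2, the cyclin D2 that partners CDK4 and CDK6, fell with CX-5461 (-0.36 ± 0.10, edgeR adjusted p = 0.0112) and with panobinostat (-2.67 ± 0.11, edgeR adjusted p = 5.99e-17). CDKN2D, an inhibitor of CDK4 and CDK6, rose with panobinostat (1.83 ± 0.10, edgeR adjusted p = 5.6e-14), and CDKN1B, the p27 inhibitor, fell (-2.03 ± 0.13, edgeR adjusted p = 4.3e-13). In JJN3, 5 of 28 rose and 6 fell with panobinostat, among them CDKN1A, which rose (1.23 ± 0.19, edgeR adjusted p = 0.000215), and CDK4, which fell (-0.63 ± 0.15, edgeR adjusted p = 0.00495). CDKN1A rose in MM1.S too, with both drugs (1.58 ± 0.13, edgeR adjusted p = 8.61e-11). With panobinostat alone in MM1.S it was at 1.25 ± 0.11, edgeR adjusted p = 4.42e-10 in the fit with the replicate block.

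Of 34 tested further replisome and licensing genes in MM1.S, 11 rose and 1 fell with CX-5461, 4 rose and 23 fell with panobinostat, and 3 rose and 21 fell with both drugs. Over all genes, 9.68% rose and 7.06% fell with CX-5461, 36.9% and 32.9% with panobinostat, and 37% and 33.2% with both drugs. ASF1B, a histone chaperone, rose with CX-5461 (0.65 ± 0.10, edgeR adjusted p = 7.35e-05), as did RECQL4, a helicase (0.77 ± 0.13, edgeR adjusted p = 0.000211). TIMELESS, the partner of TIPIN, fell with panobinostat (-1.98 ± 0.13, edgeR adjusted p = 9.22e-13), while ORC4 rose (1.42 ± 0.14, edgeR adjusted p = 1.46e-09). Of 35 tested in JJN3, 0 rose and 6 fell with panobinostat, against 15% and 10.9% of all genes. TIMELESS was again lower (-0.92 ± 0.21, edgeR adjusted p = 0.00477).

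Of 30 mitosis genes in MM1.S, 0 rose and 27 fell with panobinostat, against 36.9% and 32.9% of all genes. FOXM1, which activates mitotic genes, was at -3.25 ± 0.13, edgeR adjusted p = 9.88e-17. With CX-5461 in MM1.S, 4 mitosis genes rose and 7 fell, against 9.68% and 7.06% of all genes, where 28 and 1 of the members were called. The median of the mitosis genes was -0.01. Of those that fell, CDC20, an activator of the anaphase-promoting complex, was at -1.29 ± 0.16, edgeR adjusted p = 4.28e-06. Of those that rose, NDC80 was at 0.68 ± 0.10, edgeR adjusted p = 3e-05 and NUSAP1 at 0.70 ± 0.11, edgeR adjusted p = 4.28e-05. With both drugs set against panobinostat, 1 mitosis gene rose and 8 fell, against 2.44% and 1.65% of all genes, where 19 and 0 of the members were called. The median was -0.31 for mitosis genes and 0.39 for members. The difference between the lists was not tested. In JJN3, 4 of the 30 rose and 3 fell with panobinostat, against 15% and 10.9% of all genes. HMMR, a spindle protein, was higher (0.94 ± 0.17, edgeR adjusted p = 0.000656). UBE2C, which serves the anaphase-promoting complex, was lower (-0.70 ± 0.13, edgeR adjusted p = 0.000808). The panobinostat response of all 30 lay above that of MM1.S in JJN3 (edgeR, adjusted p under 0.05), against 18.9% of all genes.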

How the data were processed

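PolyA RNA of 24 libraries, 8 groups of 3, was profiled by 3′ RNA sequencing. For each line the authors deposited a gene table of raw counts, and the submitters' processing notes name HISAT2 2.2.1, featureCounts 2.0.1, limma 3.50.0 and the build hg19. Neither the annotation nor the strand setting is given in the sources used here. Libraries were grouped by their titles, since the treatment label of JJN3 CX-5461 replicates 2 and 3 reads CX-5462 and CX-5463, whereas titles and treatment protocol read CX-5461. Symbols were attached by NCBI Gene identifier from RefSeq (GRCh38.p14), which matched 27745 of 28395 identifiers, and exon overlaps come from GENCODE on GRCh38.

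Counts were tested in R 4.3.3 with edgeR 4.0.16 (TMM scaling, filterByExpr, robust quasi-likelihood fit, two-sided) in 1 fit per line (12 libraries, 8 residual degrees of freedom) and 1 fit of all 24 libraries for differences between lines. P-values were Benjamini-Hochberg adjusted over all genes tested (12030 in MM1.S, 11411 in JJN3, 12872 jointly), with 0.05 as the threshold. Scripts were tested on simulated counts of CX-5461 against vehicle, with 1 spread for all genes of a line. A simulated log2 change of 0.6 was called in 64% of changed genes in MM1.S and 30% in JJN3. A change of 1 was called in 96% and 89%, and 8.05% and 9.16% of calls were false. A count of 0 in JJN3 therefore leaves room for changes of 0.6 or smaller. It leaves less room for changes of 1 or more, such as those of GINS4 and TK1 with CX-5461 in MM1.S. The simulated counts held no effect shared by libraries of the same replicate number, so these rates may not carry over to JJN3. Alternatives were size factors as in DESeq2, library size alone, TMM without the 10 most abundant genes, no filter, DESeq2 1.42.0, limma-voom 3.58.1, the replicate number as a block, each library left out, and replicate 2 of every JJN3 group left out. Leaving out replicate 2 of every MM1.S group was added after seeing the data. Total counts were 4751893 to 7305069, at which 3 counts, the limit that a count of 0 allows, are 0.411 to 0.631 CPM, covering counting error only.

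Replicate numbers come from the titles. Libraries of one number deviated together in JJN3 (all 18 pairs of the same number above a correlation of 0.1, and 0 of 36 pairs of different numbers). In MM1.S the pattern was weaker (7 of 18 pairs of the same number and 2 of 36 pairs of different numbers). The members and gene lists were chosen with earlier results of these data known. Values in the libraries compared are given for members chosen by role, for the 3 with the largest rise and fall among those called in each comparison (average log2 CPM at least 3), and for members that went against their role group. Outside the members, the 2 genes of smallest adjusted p per list and direction were eligible.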

Additional observations from a re-analysis of the deposited data

Results flagged for a closer look

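The response of a member was compared between the lines by the JJN3 log2 fold change minus the MM1.S one (edgeR, adjusted p under 0.05, 24 libraries). Among members chosen by role or by the size of this difference, 38 combinations of a member and a treatment differed. With CX-5461 they were GINS4 (-1.24) and LIG1 (-1.08). With panobinostat they were CDC6 (1.39), CDT1 (1.04), MCM2 (1.98), MCM5 (2.14), MCM10 (1.24), CDC45 (1.53), CDC7 (1.07), PRIM2 (-1.14), PCNA (1.10), RFC3 (1.32), FEN1 (2.05), RRM2 (0.96), DUT (0.97), E2F1 (1.68), E2F2 (3.57), CCNE1 (0.90), CDC25A (1.15) and UHRF1 (1.09). With both drugs they were CDC6 (1.14), MCM2 (1.30), MCM5 (1.08), MCM10 (0.67), CDC45 (1.00), GINS4 (-0.88), CDC7 (1.23), PRIM2 (-1.10), PCNA (1.05), RFC3 (0.73), FEN1 (2.05), DUT (0.81), E2F2 (3.25), CCNE1 (1.03), CCNE2 (-1.56), CDC25A (0.71), SLBP (0.35) and UHRF1 (1.77). Members outside this choice also differed, among them MCM3, MCM6, RFC5 and RRM1, called above 0 with panobinostat and with both drugs. The counts over all 53 tested members stand in the report. The lines differ in p53 status and in all else that separates 2 cell lines, and these cannot be told apart.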

How the results depend on the processing

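The counts of members called for panobinostat, CX-5461 and both drugs against vehicle in MM1.S, for both drugs against panobinostat there, for both drugs against vehicle in JJN3, for panobinostat and both drugs between the lines and for vehicle between the lines stayed within 1.5 times under every setting that kept all libraries. The replicate block moved the others: 1 JJN3 additivity call in place of 0, 2 with CX-5461 in JJN3 in place of 0, 11 for both drugs against panobinostat in JJN3 in place of 0, 38 with panobinostat in JJN3 in place of 16, 11 for CX-5461 between the lines in place of 2, and 9 for additivity in MM1.S in place of 5. In MM1.S the libraries share only a number, although every MM1.S library correlated best with one of its own number, a hint from the data and not the design, and there the block gave 34 calls with CX-5461 in place of 29 and 24 for both drugs against panobinostat in place of 19. No filter on low counts gave 28 calls with panobinostat in JJN3, 3 for both drugs against panobinostat in JJN3 and 6 for CX-5461 between the lines. DESeq2 gave 1 for both drugs against panobinostat in JJN3 and 4 for CX-5461 between the lines. Without replicate 2 of every JJN3 group there were 31 with panobinostat in JJN3 and 7 for CX-5461 between the lines. The cause was not tested.

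Leaving out 1 library at a time, or replicate 2 of every group of 1 line, gave 46 to 47 calls with panobinostat, 18 to 30 with CX-5461, 42 to 47 with both drugs, 11 to 23 for both drugs against panobinostat and 1 to 6 for additivity in MM1.S. In JJN3 it gave 10 to 34 with panobinostat, 0 to 0 with CX-5461, 14 to 25 with both drugs, 0 to 1 for both drugs against panobinostat and 0 to 0 for additivity. Between the lines it gave 26 to 35 with panobinostat, 0 to 10 with CX-5461, 22 to 28 with both drugs and 18 to 30 with vehicle. No log2 fold change of a named member changed direction while called; with all libraries 1075 recomputed values kept their side of the threshold, 48 gained and 11 lost a call, and with libraries left out 1991 kept it, 53 gained and 62 lost a call. Low counts limit CCNE2 in MM1.S, and TYMS could not be tested.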

Other observations

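Genes that make nucleotides outside the 54 members mostly fell with panobinostat in MM1.S, and fewer did in JJN3. Of 25 tested in MM1.S, 1 rose and 23 fell with panobinostat (edgeR, adjusted p under 0.05), against 36.9% and 32.9% of all genes. CTPS1, which makes CTP, was at -3.02 ± 0.14 and DTYMK, the thymidylate kinase, at -2.73 ± 0.15. Of 24 tested in JJN3, 1 rose and 11 fell with panobinostat, against 15% and 10.9% of all genes. There CTPS1 was at -1.48 ± 0.15 and CAD, which starts pyrimidine synthesis, at -1.68 ± 0.20. RRM2B, the p53-inducible subunit of ribonucleotide reductase, was the gene that rose, by 1.34 ± 0.17 in MM1.S and 0.36 ± 0.12 in JJN3. With CX-5461 in MM1.S, 2 of the 25 rose and 5 fell, against 9.68% and 7.06% of all genes. RRM2B was at 1.00 ± 0.17 and IMPDH1, an enzyme of GTP synthesis, at -0.70 ± 0.14.

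Of 11 tested S phase checkpoint genes in MM1.S, 2 rose and 1 fell with CX-5461, against 9.68% and 7.06% of all genes. With panobinostat 1 rose and 7 fell, against 36.9% and 32.9% of all genes. CHEK1, the checkpoint kinase, was at 0.48 ± 0.12 with CX-5461. RAD9A, of the checkpoint clamp, rose with panobinostat (2.46 ± 0.19) and CDC25B, a phosphatase that activates CDK1, fell (-1.67 ± 0.13). In JJN3, edgeR called 0 of 11 with panobinostat, against 15% of all genes higher and 10.9% lower, and 2 of the 11 had an unadjusted p under 0.05.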
